A study of Mus musculus with 8 samples.

Results

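Small nucleolar RNA (snoRNA) genes with a numbered Snord or Snora symbol were taken from 8 polyA RNA-seq libraries of mouse spinal dorsal horn. A gene was included where the symbol of its identifier in GENCODE M21 starts with Snord or Snora and a digit, and where its mean over the 8 libraries was above 0.1 FPKM (fragments per kilobase of gene, scaled to library depth). This rule took 52 of the 49585 genes in the files, 35 of them box C/D genes (Snord) and 17 H/ACA genes (Snora). The files hold 141 genes with such a symbol. Of these, 78 were listed at 0 in all 8 libraries (55 box C/D and 23 H/ACA), and 11 had a value above 0 in at least 1 library but a mean of 0.1 or less. The lowest means inside the limit were those of Snord87 (0.227 FPKM), Snord85 (0.197 FPKM) and Snord90 (0.123 FPKM). The highest means outside it were those of Snord70 (0.0793 FPKM), Snord116l10 (0.0724 FPKM) and Snord116l17 (0.0651 FPKM). Of 17 Snord116 genes in the files, a family known as imprinted and transcribed in neurons, 11 were listed at 0 in every library and none reached the limit. The members were chosen by their mean FPKM over all 8 libraries, so the levels are a description without a test. The choice did not use the genotype.

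SnoRNAs are short RNAs of the nucleolus that guide chemical changes of ribosomal RNA by pairing with it. Box C/D snoRNAs carry a box C near the 5′ end and a box D near the 3′ end, bind fibrillarin (Fbl) with Nop56, Nop58 and Snu13, and direct methylation of ribose. H/ACA snoRNAs end shortly after the bases ACA, bind dyskerin (Dkc1) with Nhp2, Nop10 and Gar1, and direct the conversion of uridine to pseudouridine. In mammals most snoRNAs lie in introns of host genes, many of which encode ribosomal proteins or translation factors, and are trimmed from the spliced intron. The mature forms have no poly(A) tail. An FPKM at such a gene counts the fragments assigned to its locus, and these values cannot tell mature snoRNA from longer RNA that contains it.

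The compared groups were miR-96 knock-out mice (KO, 4 libraries) and wild-type mice (WT, 4 libraries), all adult and of strain C57BL/6J. The RNA came from the dorsal horn of lumbar segments 4 to 6, and the sources used here do not give the knock-out allele. Replicate numbers in the labels are not tied to animals, so each p-value measures the spread between these 8 libraries only. Mir96 itself was listed at 0 FPKM in all 8 libraries, which checks nothing about the genotype, because libraries of this kind do not measure mature microRNA.

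The depth, estimated from the FPKM steps of other short genes, was 30300000 to 40800000 fragments in KO libraries and 32600000 to 38600000 in WT libraries. Markers of the labelled tissue were present in every library. The 6 dorsal horn markers together had 255 to 416 FPKM in KO libraries and 334 to 475 FPKM in WT libraries. WT replicate 1 stood apart from the others. Its median Spearman correlation with the other libraries over all genes was 0.963, against 0.976 to 0.980 in the other 7. Its 4 blood markers summed to 198 FPKM, against 17.4 to 39.1 FPKM in KO libraries and 5.83 FPKM in the lowest WT library. The highest of the 4, Hbb-bs, had 114 FPKM in WT replicate 1, 3.65 to 20.2 FPKM in the other WT libraries and 8.73 to 20.1 FPKM in KO libraries. Of the 6 liver markers, 6 had all KO values above all WT values, with sums of 26.7 to 52.7 FPKM in KO libraries and 1.29 to 10.6 FPKM in WT libraries. Among all 21279 genes with a mean above 0.1 FPKM, 462 (2.17%) had all KO values above all WT values. The part of these differences in the snoRNA values was not tested.

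The sequences of the genes that the results turn on show which class features they carry. They are given 5′ to 3′ as DNA letters of the RNA strand, from the GENCODE M21 transcripts (assembly GRCm38). Capitals mark the first TGATG, the core of box C, within the first 25 bases, and the last CTGA, box D, within the last 25 bases of box C/D genes. In H/ACA genes they mark the last ACA within the last 8 bases. Snord104 had the highest level of all, Snord37, Snord66 and Snord19 were among the box C/D genes with the lowest p-values and a higher KO mean, and Snord83b had the lowest p-value among those with a lower KO mean. Snora28 was the most abundant H/ACA gene, Snora23 had the lowest p-value of all, and Snora78 had the lowest among H/ACA genes with a lower KO mean.
Snord104: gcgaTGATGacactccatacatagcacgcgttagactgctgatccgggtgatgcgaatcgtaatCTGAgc
Snord37: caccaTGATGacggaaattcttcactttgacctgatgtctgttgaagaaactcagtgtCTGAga
Snord66: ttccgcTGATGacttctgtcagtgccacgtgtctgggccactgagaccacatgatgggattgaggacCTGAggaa
Snord19: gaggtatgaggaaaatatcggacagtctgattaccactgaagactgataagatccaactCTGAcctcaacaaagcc
Snord83b: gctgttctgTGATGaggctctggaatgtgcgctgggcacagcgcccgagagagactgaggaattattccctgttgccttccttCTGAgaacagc
Snora28: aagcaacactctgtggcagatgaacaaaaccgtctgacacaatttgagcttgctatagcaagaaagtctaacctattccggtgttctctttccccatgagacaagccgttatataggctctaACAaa
Snora23: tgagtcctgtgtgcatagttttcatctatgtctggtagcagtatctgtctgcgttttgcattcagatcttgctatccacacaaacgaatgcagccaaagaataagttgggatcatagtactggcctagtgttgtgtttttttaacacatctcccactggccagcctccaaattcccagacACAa
Snora78: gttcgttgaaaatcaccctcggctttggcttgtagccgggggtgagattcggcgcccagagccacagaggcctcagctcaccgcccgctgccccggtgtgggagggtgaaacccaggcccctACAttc

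Snord104 lies at chr11:106500993-106501062 on the plus strand, Snord37 at chr10:81178950-81179013 on the plus strand, Snord66 at chr16:20684239-20684313 on the plus strand, Snord19 at chr14:31016206-31016281 on the minus strand and Snord83b at chr15:80078498-80078591 on the minus strand. Snora28 lies at chr12:111540941-111541067 on the plus strand, Snora23 at chr7:110046364-110046547 on the plus strand and Snora78 at chr17:24719676-24719803 on the minus strand. Of the sequences shown, Snord19 has box D but no TGATG in its first 25 bases, while the other box C/D sequences hold both boxes.

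Over all members, the letters of the class were mostly present. The classes are defined by these features, so the counts describe the sequences and test nothing. Of the 35 box C/D genes, 30 held TGATG in the first 25 bases, 34 held CTGA in the last 25 and 29 held both. The search used the RNA strand only, and the 2 windows do not overlap in any member. Among 32851 promoter windows of RefSeq (GRCm38.p6) cut to the median box C/D length of 78 bases, 2.0% held TGATG, 11.1% held CTGA and 0.26% held both in the same places. All 17 H/ACA genes held ACA in the last 8 bases, against 9.1% of windows of the median H/ACA length of 132 bases, and in 12 of them exactly 3 bases followed it. None of the 17 held TGATG in the first 25 bases, and 3 of the box C/D genes held a final ACA. Box C/D genes were 64 to 238 bases long and H/ACA genes 127 to 184 bases, and their median GC contents were 46.3% and 46.7%. The annotation lists Snord43, named as a snoRNA, as a microRNA gene.

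At this length an FPKM is a small number of fragments. All 354 member values above 0 came within 0.1 of a whole number of fragments when multiplied by the locus length and the estimated depth. The 52 genes held 4615 fragments in all over the 8 libraries. Snord104 held 903 of them (19.6%), and the 5 genes with most held 47.2%. The median gene had 46.5 fragments over the 8 libraries, and 24 of the 52 genes had under 40. In 29 genes every library had a value above 0, and in 23 at least 1 library was at 0. A single fragment of Snord37 was worth 0.383 to 0.515 FPKM depending on the library, and one of the longer Snora23 was worth 0.133 to 0.179 FPKM.

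Among box C/D genes the mean over the 8 libraries ran from 0.123 to 45.1 FPKM with a median of 1.7 FPKM, and 24 of 35 reached a mean of 1 FPKM. Snord104, which in human guides methylation of the large-subunit ribosomal RNA, has no host on its strand among the genes with FPKM values. It had 38.0, 23.9, 38.8 and 35.3 FPKM in KO libraries, against 98.7, 47.0, 34.6 and 44.5 FPKM in WT libraries. All 4 KO values lay below those of WT replicates 1, 2 and 4, WT replicate 3 lay within the KO range, and WT replicate 1 lay far above all other libraries. Its log2 fold change of FPKM + 1, KO minus WT, was −0.62 (SE 0.29, limma adjusted p 0.68), and it was −0.31 without WT replicate 1.

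Snord91a lies in an intron of Tsr1, a factor of ribosome maturation, and had 11.5, 12.7, 18.7 and 22.7 FPKM in KO libraries, against 12.5, 9.75, 14.9 and 21.6 FPKM in WT libraries. Both groups covered nearly the same range. Snord55 had 5.98, 10.6, 8.68 and 7.09 FPKM in KO libraries, against 11.7, 8.53, 9.31 and 11.3 FPKM in WT libraries. KO replicates 2 and 3 lay among the WT libraries, and KO replicates 1 and 4 lay below all of them. Snord69, in Gnl3, which encodes the nucleolar protein nucleostemin, had 7.77, 3.49, 8.88 and 6.18 FPKM in KO libraries, against 7.67, 6.80, 6.13 and 10.2 FPKM in WT libraries. The lowest value, in KO replicate 2, came from 9 fragments, and the other 3 KO libraries lay within the WT range. Snord58b, in the ribosomal protein gene Rpl17, had 9.79, 6.58, 3.34 and 8.49 FPKM in KO libraries, against 1.40, 6.28, 9.08 and 5.75 FPKM in WT libraries. WT replicate 1 was low here with 3 fragments, and the other WT libraries lay within the KO range. Log2 fold changes were 0.15 (SE 0.26) for Snord91a, −0.32 (SE 0.17) for Snord55 and −0.24 (SE 0.24) for Snord69.

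Among H/ACA genes the mean ran from 0.236 to 12.2 FPKM with a median of 1.54 FPKM, and 11 of 17 reached 1 FPKM. Snora28, in the gene of the translation initiation factor Eif5, had 16.4, 13.7, 12 and 15.1 FPKM in KO libraries, against 3.14, 13.5, 9.86 and 14.3 FPKM in WT libraries. WT replicate 1 again stood apart, low in this gene where it was high in Snord104. The log2 fold change was 0.60 (SE 0.36) with all libraries and 0.18 without WT replicate 1.

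Snora31, in Tpt1, had 7.26, 6.21, 4.52 and 5.33 FPKM in KO libraries, against 7.32, 4.18, 3.77 and 4.79 FPKM in WT libraries. All KO values lay within the WT range. Snora57 had 3.19, 3.35, 3.47 and 5.35 FPKM in KO libraries, against 6.64, 3.85, 1.10 and 2.93 FPKM in WT libraries. The WT values spanned more than the KO values on both sides. Snora34, in Kansl2, had 5.94, 3.15, 3.02 and 1.43 FPKM in KO libraries, against 3.78, 3.00, 3.16 and 4.71 FPKM in WT libraries. KO replicates 1 and 4 were the highest and the lowest of the 8 libraries. Snora33, in the ribosomal protein gene Rps12, had 3.08, 1.68, 1.52 and 1.79 FPKM in KO libraries, against 4.28, 2.21, 4.01 and 1.68 FPKM in WT libraries. KO replicate 1 lay between the upper and the lower pair of WT values, and the other 3 KO libraries lay below WT replicate 2. Snora17 had 0.753, 4.47, 1.30 and 4.75 FPKM in KO libraries, against 2.79, 2.75, 2.06 and 1.23 FPKM in WT libraries. Its KO replicates 2 and 4 lay above the WT values, KO replicate 1 lay below them, and KO replicate 3 lay just above the lowest WT value. Snora57 and Snora17 have no host on their strand among the genes with FPKM values. Log2 fold changes were 0.20 (SE 0.19) for Snora31, 0.19 (SE 0.33) for Snora57 and −0.17 (SE 0.27) for Snora34. They were −0.39 (SE 0.25) for Snora33 and 0.096 (SE 0.38) for Snora17.

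**Figure D1:**
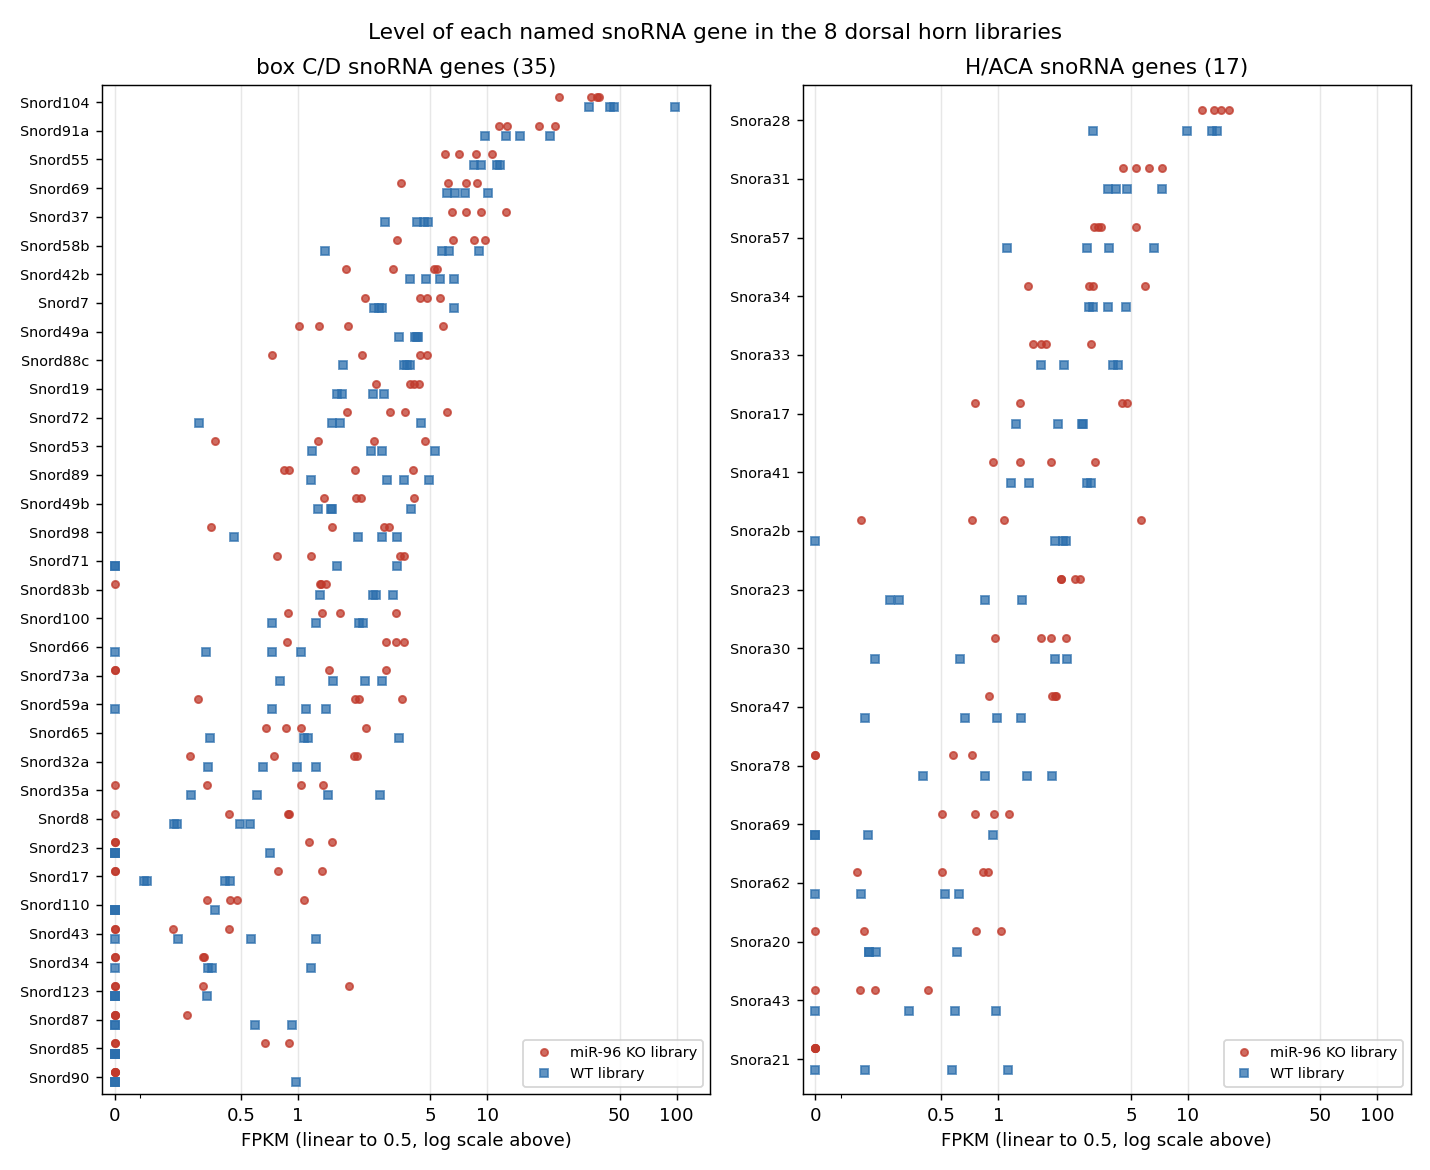
FPKM of each of the 52 snoRNA genes (down the page, by mean) in each KO library (red circles) and WT library (blue squares), with a horizontal axis linear to 0.5 FPKM and logarithmic above. Snord104 sits furthest right, from 23.9 FPKM upward, the colours overlap in nearly every line, and the points at 0 belong to the 23 genes that were at 0 in at least 1 library.

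In the plot of levels by library the spread within a genotype grew wide toward the bottom of each panel, where a few fragments set each point. Among the 28 genes with at least 40 fragments, the variance within groups was at the median 2.56 times what counting alone gives, and 17 of them were above 2. For Snord104 the ratio was 19.4. Among the 24 genes with fewer fragments the median was 1.71.

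Summed over members, box C/D genes had 129 ± 12.7 FPKM in KO libraries and 144 ± 24.3 FPKM in WT libraries (SD, n = 4 each). The groups overlapped, and WT replicate 1 alone reached 178 FPKM, of which Snord104 made 55.3%. The difference of the means, KO minus WT, was −15.3 FPKM with all libraries and −3.80 FPKM without WT replicate 1. Without Snord104 the sums had the other order, at 94.6 ± 7.68 FPKM in KO libraries and 87.7 ± 6.46 FPKM in WT libraries (SD, n = 4 each). H/ACA genes summed to 44.2 ± 5.86 FPKM in KO libraries and 37.3 ± 4.72 FPKM in WT libraries (SD, n = 4 each). Here 3 KO libraries, at 46.2 to 48.3 FPKM, lay above the highest WT library at 42.3 FPKM, while KO replicate 3 had 35.5 FPKM. No test was made of these sums.

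The comparison of KO with WT asks whether any of these genes differed with the loss of miR-96. It was made with limma on log2(FPKM + 1) over the 21279 genes with a mean above 0.1 FPKM, two-sided, with Benjamini-Hochberg adjustment over all of them. No snoRNA gene passed an adjusted p of 0.05, nor did any other gene (0 of 21279, 0%). The lowest adjusted p was 0.433 among the 52 snoRNA genes and 0.154 among all genes. At an unadjusted p under 0.05 there were 10 of the 52 (19.2%), beside 1224 of all genes tested (5.75%). A higher KO mean was found in 7 of the 10, beside 885 of those 1224 genes (4.16% of all genes tested). A lower one was found in 3 of the 10, beside 339 of the 1224 (1.59% of all genes tested). Of the 10, 5 were box C/D and 5 H/ACA genes. Snord110 and Snora21 are among the 10 and passed the limit of 0.1 FPKM through the genotype where they were higher. Their place in this count is therefore not independent of the rule. Without WT replicate 1 the count was 11, beside 899 of all genes tested. The other 1038 genes with a locus under 250 bases gave 96 (9.25%), and the 175 other genes annotated as snoRNA, which have no numbered name, gave 17. An unadjusted p under 0.05 is not a call.

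The direction of the members was close to even. A higher KO mean on the log2 scale was seen in 28 and a lower one in 24. The median log2 fold change was 0.10 over box C/D genes and 0.14 over H/ACA genes, beside 0.022 over all genes tested, 0.095 over the other short genes and 0.15 over the other annotated snoRNAs. The box C/D median changed sign under several settings (−0.051 with a pseudocount of 0.1, −0.040 with library weights, −0.071 without KO replicate 3, −0.013 without KO replicate 4 and −0.075 without WT replicate 4). The H/ACA median stayed above 0 under every alternative run. In 2 of the 52 genes, Snora23 and Snord37, every KO library lay above every WT library, beside 462 of all genes tested (2.17%). In none did every KO library lie below every WT library, beside 219 of all genes (1.03%), and in either direction the groups were apart in 681 of all genes (3.2%).

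**Figure D2:**
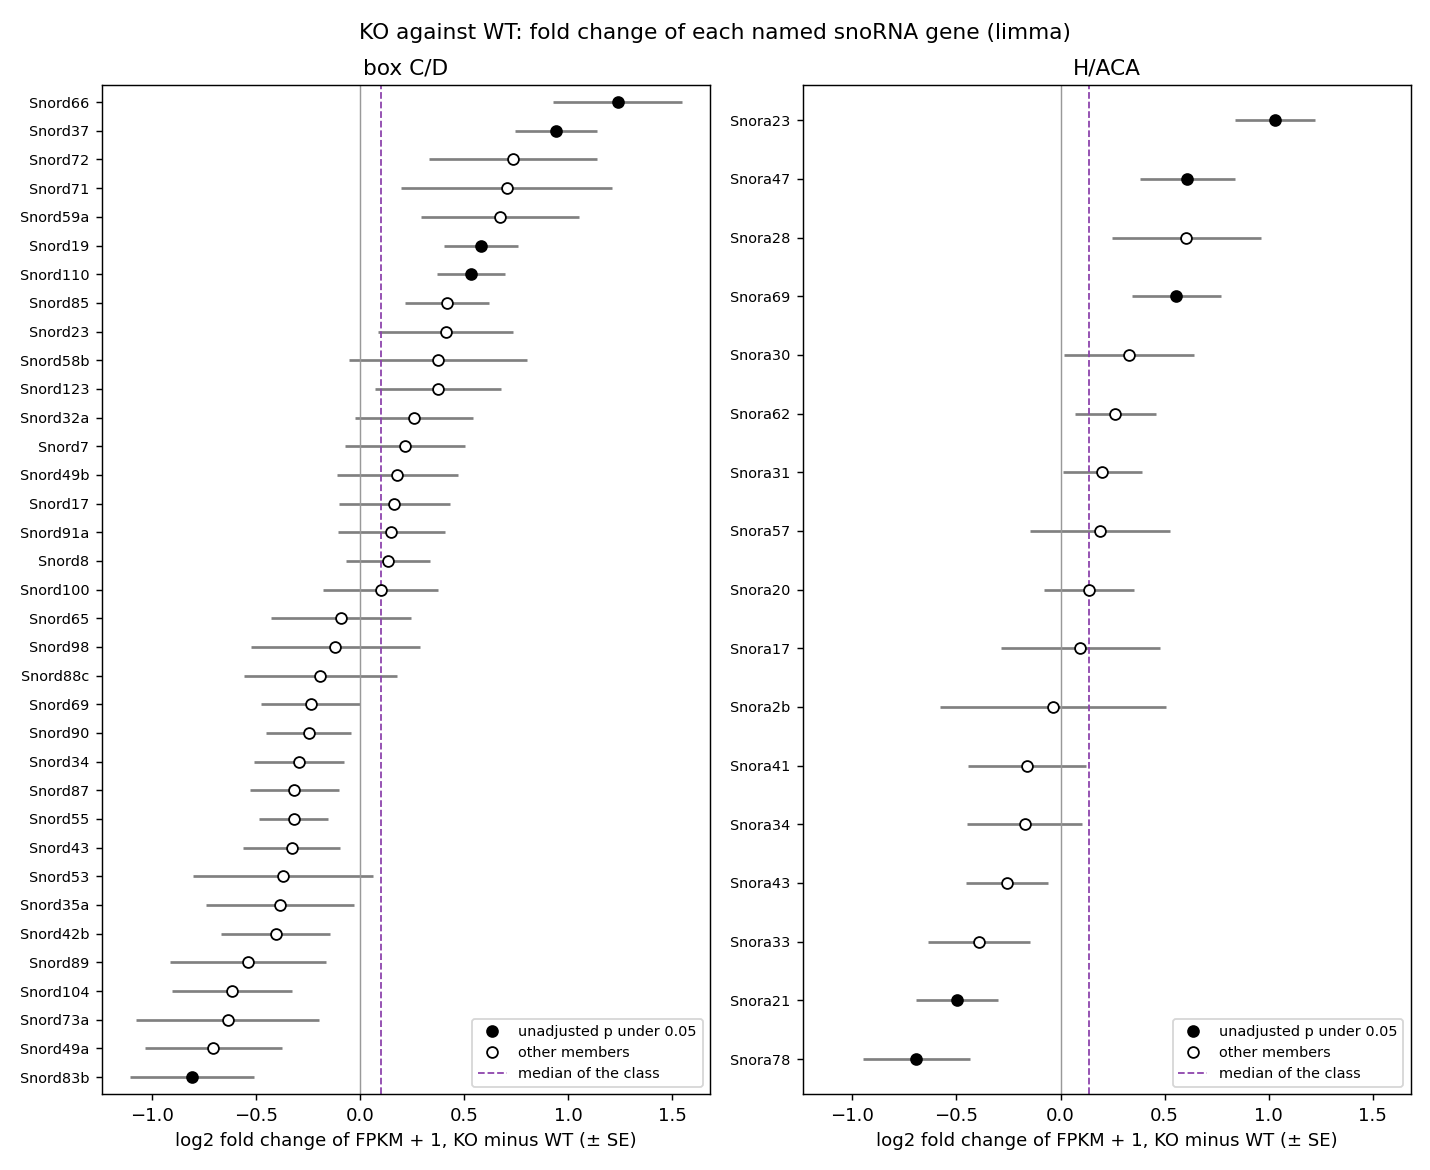
Log2 fold change of FPKM + 1, KO minus WT, for each box C/D gene (left) and H/ACA gene (right), with bars of 1 standard error from limma and a dashed line at the median of the class. Filled points are the 10 genes with an unadjusted p under 0.05, and the medians, 0.10 and 0.14, lie close to 0 beside single genes from −0.81 (Snord83b) to 1.24 (Snord66).

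In the plot of fold changes the largest positive estimates were those of Snord66, Snora23 and Snord37. This order belongs to the pseudocount of 1. With a pseudocount of 0.1 the order differed among the members named for the lowest p-values and a higher KO mean. Their highest log2 fold changes were then 2.44 for Snord66, 2.12 for Snord110, 1.83 for Snora23, 1.16 for Snora47 and 1.09 for Snord37. Members that were not named are left out of this order, and some of them lie above Snora23 on that scale. Snora23, which in human guides pseudouridylation of the large-subunit ribosomal RNA, lies in an intron of Ipo7, the gene of a nuclear import receptor. It had 2.70, 2.53, 2.13 and 2.15 FPKM in KO libraries, against 0.334, 0.845, 0.296 and 1.33 FPKM in WT libraries. All 4 KO libraries were above all 4 WT libraries, and the sums were 63 fragments in KO and 19 in WT. The means were 2.38 ± 0.284 FPKM in KO libraries and 0.700 ± 0.486 FPKM in WT libraries (SD, n = 4 each). By limma the log2 fold change was 1.03 (SE 0.19), with an unadjusted p of 0.000346 and an adjusted p of 0.433. A gene on the other strand, 1600010M07Rik, overlaps Snora23, and the sources used here do not say whether counting used strand.

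Snord37 lies in an intron of Eef2, which encodes a translation elongation factor, and in human guides methylation of the large-subunit ribosomal RNA. It had 9.32, 12.6, 6.5 and 7.73 FPKM in KO libraries, against 2.88, 4.86, 4.25 and 4.66 FPKM in WT libraries. The KO libraries were again all above the WT libraries, with 82 and 39 fragments in all. The means were 9.04 ± 2.64 FPKM in KO libraries and 4.16 ± 0.892 FPKM in WT libraries (SD, n = 4 each). By limma the log2 fold change was 0.94 (SE 0.20), with an unadjusted p of 0.000823 and an adjusted p of 0.61. Its host had the lower mean in KO, where Eef2 had 445 ± 33.4 FPKM in KO libraries and 493 ± 30.1 FPKM in WT libraries (SD, n = 4 each).

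Snord66 overlaps a retained-intron transcript of Eif4g1, the scaffold protein of translation initiation, and in human guides methylation of the small-subunit ribosomal RNA. It had 3.64, 3.31, 2.94 and 0.879 FPKM in KO libraries, against 0, 1.04, 0.726 and 0.361 FPKM in WT libraries. KO replicates 1 to 3 were above all WT libraries, and KO replicate 4, with 2 fragments, lay between WT replicates 2 and 3. The sums were 30 fragments in KO and 6 in WT. By limma the log2 fold change was 1.24 (SE 0.31), with an unadjusted p of 0.00269 and an adjusted p of 0.68.

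Snord19 shares the host Gnl3 with Snord69. It had 3.92, 4.08, 2.58 and 4.34 FPKM in KO libraries, against 1.62, 1.70, 2.87 and 2.50 FPKM in WT libraries. KO replicate 3 was the only KO library within the WT range. The log2 fold change was 0.58 (SE 0.18, limma unadjusted p 0.00848, adjusted p 0.68), against −0.24 (SE 0.24) for Snord69 from the same gene. The value of Snord69 was −0.0051 without KO replicate 2 and −0.38 without KO replicate 3. Gnl3 itself had 11.6 ± 1.5 FPKM in KO libraries and 10.7 ± 1.56 FPKM in WT libraries (SD, n = 4 each).

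Snord110, in an intron of Nop56, rested on 6 KO fragments and 1 WT fragment. It had 0.365, 0.456, 1.08 and 0.485 FPKM in KO libraries, against 0, 0, 0 and 0.398 FPKM in WT libraries. KO replicates 1, 2 and 4 and WT replicate 4 had 1 fragment each, KO replicate 3 had 3, and the other WT libraries had none. The mean of Snord110 was 0.597 FPKM in KO libraries and 0.0996 FPKM in WT libraries. It thus passed the limit of 0.1 FPKM through its KO libraries, and being included and being higher in KO are not independent. Its limma log2 fold change was 0.53 (SE 0.16, adjusted p 0.68) with a pseudocount of 1. Snora47, in Zbed3, had 1.98, 2.02, 0.887 and 1.91 FPKM in KO libraries, against 0.667, 1.31, 0.197 and 0.982 FPKM in WT libraries. KO replicate 3 lay within the WT range, and the log2 fold change was 0.61 (SE 0.23, limma adjusted p 0.68). The last of the 7, Snora69 in the ribosomal protein gene Rpl39, falls outside the 6 named by rank and is given here to complete the count. It had 1.14, 0.947, 0.748 and 0.503 FPKM in KO libraries, against 0.937, 0, 0.208 and 0 FPKM in WT libraries. WT replicate 1 lay within the KO range, and the sums were 16 fragments in KO and 5 in WT.

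**Figure D3:**
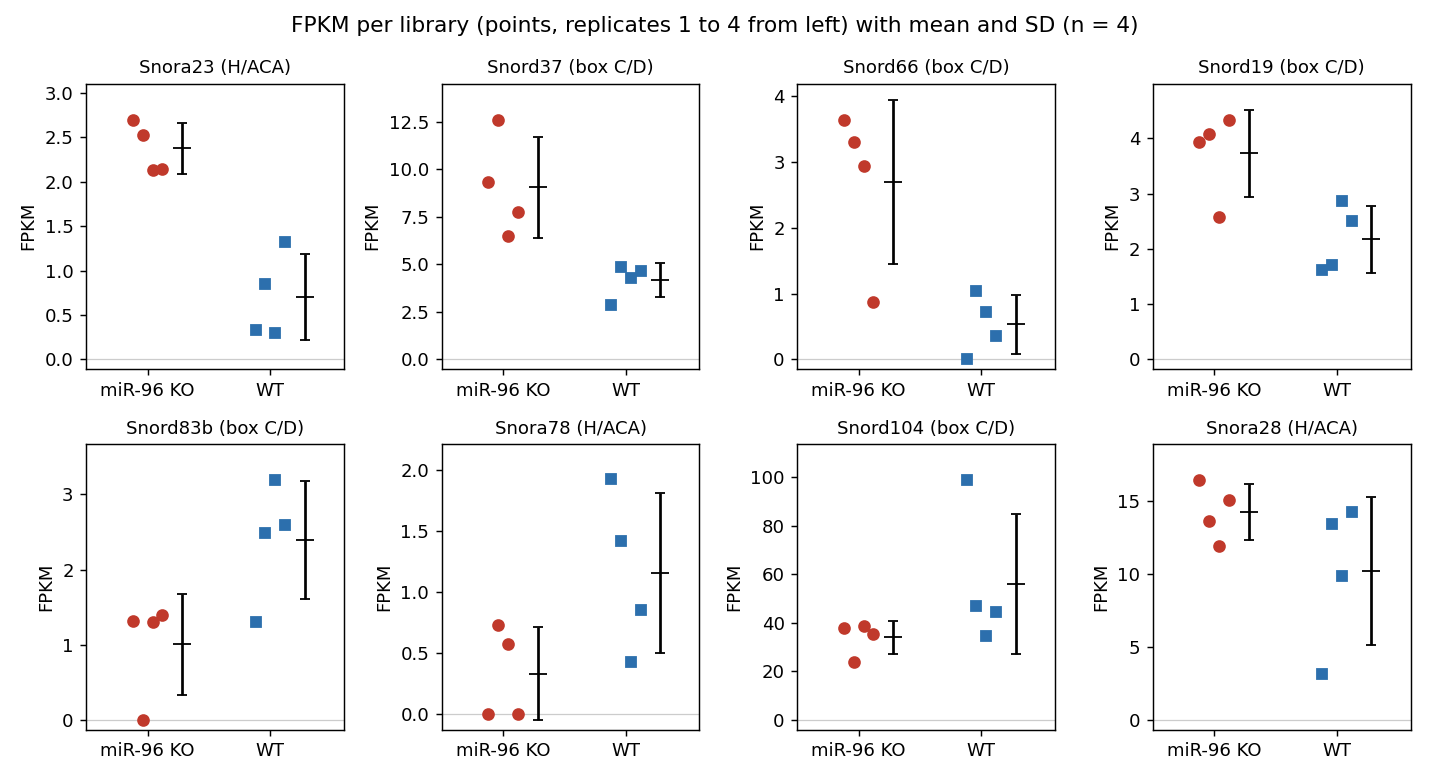
FPKM per library of 8 snoRNA genes, with the 4 KO libraries (red circles) left of the 4 WT libraries (blue squares) in each panel, and beside them the mean with 1 SD (n = 4). Colours do not overlap in Snora23 (KO from 2.13, WT up to 1.33 FPKM) and Snord37 (KO from 6.5, WT up to 4.86 FPKM) and do overlap in the other 6, and in Snord104 the WT mean is raised by the single value of 98.7 FPKM.

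The panels of values by library also show genes with a lower KO mean. Snord83b, in an intron of the ribosomal protein gene Rpl3, had 1.32, 0, 1.30 and 1.40 FPKM in KO libraries, against 1.31, 2.48, 3.19 and 2.59 FPKM in WT libraries. WT replicate 1 lay among the KO libraries, the other WT libraries were above them, and KO replicate 2 had no fragment. The sums were 14 fragments in KO and 33 in WT. By limma the log2 fold change was −0.81 (SE 0.30), with an unadjusted p of 0.0223 and an adjusted p of 0.68, and with a pseudocount of 0.1 it was −1.69. Rpl3 had 315 ± 32.3 FPKM in KO libraries and 396 ± 94.2 FPKM in WT libraries (SD, n = 4 each).

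Snora78, in an intron of the noncoding gene Snhg9 and opposite Rps2 on the other strand, had 0, 0.727, 0.574 and 0 FPKM in KO libraries, against 1.92, 1.42, 0.425 and 0.847 FPKM in WT libraries. KO replicates 1 and 4 were at 0, and the other 2 KO libraries lay between the lowest and the next WT library. The sums were 6 fragments in KO and 21 in WT. By limma the log2 fold change was −0.69 (SE 0.26, unadjusted p 0.0230, adjusted p 0.68), and it was −2.02 with a pseudocount of 0.1. Snhg9 was itself at or near 0, with 0, 0, 0 and 0.180 FPKM in KO libraries, against 1.01, 0, 0.149 and 0.296 FPKM in WT libraries, and Snora78 was above its host in mean level.

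Snora21, in the ribosomal protein gene Rpl23, was listed at 0 in all 4 KO libraries. In WT libraries it had 1.12, 0.567, 0 and 0.198 FPKM from 9 fragments, 5 of them in WT replicate 1. Its mean over the 8 libraries reached 0.1 FPKM through WT libraries alone, so being included and being higher in WT are not independent. WT replicate 3 was at 0 too, so the groups overlapped, and the limma adjusted p was 0.68. At the lowest depth, Snord85 had 4 fragments in KO and 0 in WT libraries, and Snord90 had 0 in KO and 4 in WT libraries. Each was included through 1 genotype alone. The mean of Snord123 was 0.552 FPKM in KO and 0.0912 FPKM in WT libraries, and that of Snord87 was 0.0714 FPKM in KO and 0.382 FPKM in WT libraries. These genes too exceeded 0.1 FPKM in 1 genotype only.

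Snord49a, in the noncoding gene 2410006H16Rik, had 5.87, 1.29, 1.02 and 1.83 FPKM in KO libraries, against 4.26, 4.32, 3.40 and 4.14 FPKM in WT libraries. KO replicate 1, with 17 fragments, lay above all WT libraries and the other 3 KO libraries lay below them. The log2 fold change was −0.70 (SE 0.33, limma unadjusted p 0.0596), and it was −1.09 without KO replicate 1. Another pair of box C/D genes shares that host. Snord49b had 1.38, 2.15, 2.04 and 4.12 FPKM in KO libraries, against 1.28, 3.96, 1.51 and 1.51 FPKM in WT libraries, and Snord65 had 1.04, 0.862, 0.680 and 2.29 FPKM in KO libraries, against 3.41, 1.08, 1.13 and 0.376 FPKM in WT libraries. The log2 fold change was 0.18 (SE 0.29) for Snord49b and −0.091 (SE 0.34) for Snord65, and both groups overlapped in each. The host had 33.9 ± 1.81 FPKM in KO libraries and 51.9 ± 25.9 FPKM in WT libraries (SD, n = 4 each).

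Rpl13a, a ribosomal protein gene, also holds 3 members. Snord32a averaged 1.27 ± 0.887 FPKM in KO libraries and 0.814 ± 0.383 FPKM in WT libraries (SD, n = 4 each). Snord35a averaged 0.690 ± 0.619 FPKM in KO libraries and 1.27 ± 1.09 FPKM in WT libraries (SD, n = 4 each). Snord34 averaged 0.176 ± 0.203 FPKM in KO libraries and 0.481 ± 0.491 FPKM in WT libraries (SD, n = 4 each). Their log2 fold changes were 0.26, −0.38 and −0.29, with standard errors of 0.28, 0.36 and 0.22, and Rpl13a itself had 33.2 ± 6.98 FPKM in KO libraries and 42.0 ± 18.2 FPKM in WT libraries (SD, n = 4 each).

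Most members lie inside other genes. Among the genes with FPKM values, a host on the same strand holds 48 of the 52 members, in 40 different genes. For 4 members no host was found there (Snord104, Snora57, Snora17 and Snora43). Of the 13 listed noncoding snoRNA hosts only 11 have FPKM values, and a host without such values would be missed. Of the 48, 40 lie in an intron and 8 overlap an annotated retained-intron transcript of the host, where fragments of the host transcript and of the snoRNA gene share the locus. Among the named members these were Snora28, Snord69, Snord19, Snora33 and Snord66. A gene on the other strand overlaps 4 members (Snora57, Snora23, Snora78 and Snord8). Mean levels of the hosts ran from 0.204 to 1634.5 FPKM. Spearman's rho between the mean level of a member and that of its host was 0.04 over the 48 pairs, given as a description, since pairs share libraries and some share a host. At the median a member's FPKM was 2.69% of its host's, and 4 members were above their host (Snord91a, Snord89, Snora30 and Snora78).

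By kind of host, 15 members lie in 11 ribosomal protein genes. Of these 15, 6 had a higher and 9 a lower KO mean, with a median log2 fold change of −0.32. The 11 host genes had lower KO means in 11 of 11 cases, with a median of −0.31, and so under median-ratio rescaling and quantile normalization (11 of 11 each). Without WT replicate 1 the host median was −0.11 with 10 of 11 lower, and the members' median was −0.24. The other 33 members had a median of 0.17, with 20 higher and 13 lower, while their hosts had a median of 0.025. Over the 48 pairs, rho between the fold change of a member and that of its host was 0.32, also only a description. None of the 40 hosts passed the adjusted threshold, and 1 had an unadjusted p under 0.05 (2.5%, beside 5.75% of all genes tested). It was Rpl17, with 45.2, 34.1, 143 and 43.3 FPKM in KO libraries, against 119.9, 203, 157 and 87.9 FPKM in WT libraries. KO replicates 1, 2 and 4 were below all WT libraries, and KO replicate 3 lay among them. The log2 fold change of Rpl17 was −1.27 (SE 0.42, limma adjusted p 0.68), against 0.38 (SE 0.43) for Snord58b in its intron, which was −0.054 without WT replicate 1.

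**Figure D4:**
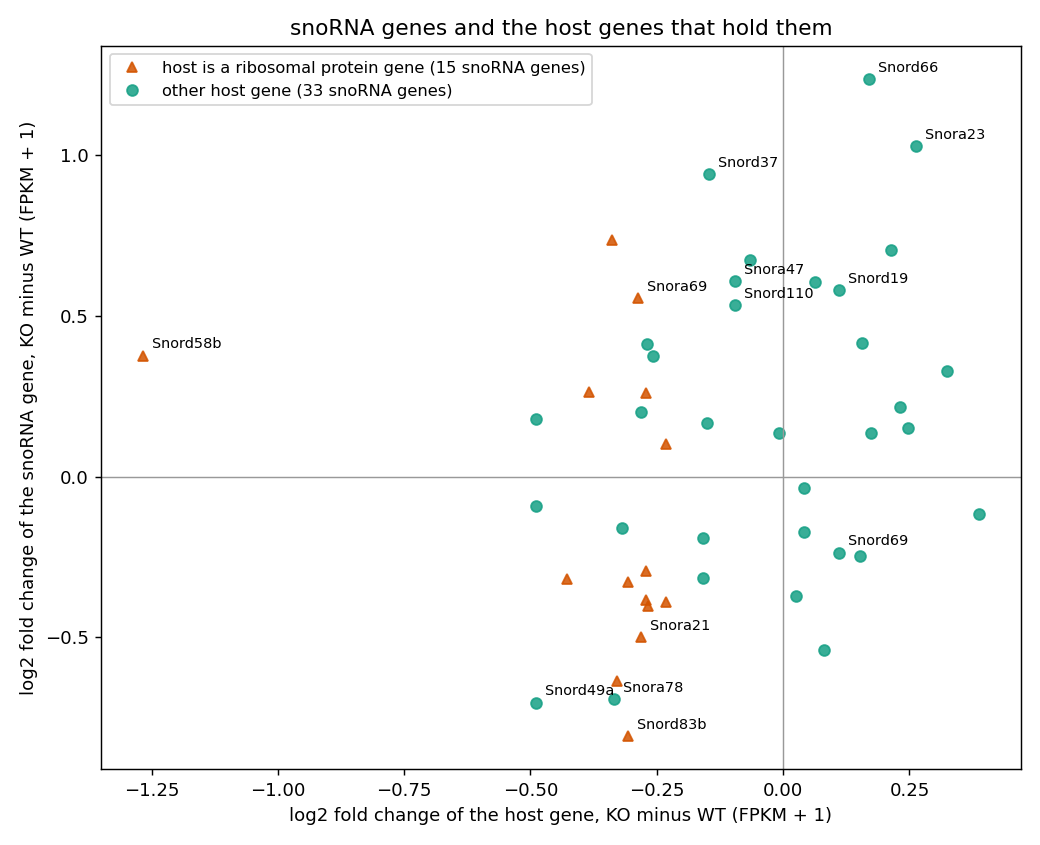
Log2 fold change of FPKM + 1, KO minus WT, of each of 48 snoRNA genes (vertical axis) against that of its host gene (horizontal axis), with triangles for members in ribosomal protein genes and circles for other hosts. All triangles lie left of 0, Snord58b stands alone at the far left with its host Rpl17 at −1.27, and the circles spread over all 4 quadrants.

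The remaining hosts of named genes, on the horizontal axis of the plot of members against hosts, were measured as follows. Ipo7 had 39.6 ± 4.02 FPKM in KO libraries and 33.2 ± 7.11 FPKM in WT libraries (SD, n = 4 each), with a log2 fold change of 0.26 (SE 0.14) beside 1.03 for Snora23. Eif4g1 had 143 ± 2.54 FPKM in KO libraries and 129 ± 26.1 FPKM in WT libraries (SD, n = 4 each), with 0.17 (SE 0.15) beside 1.24 for Snord66. Hosts of abundant members had log2 fold changes of 0.064 (SE 0.085) for Eif5, 0.25 (SE 0.21) for Tsr1 and 0.042 (SE 0.10) for Kansl2. Lower KO means were found in Tpt1, at −0.28 (SE 0.18), Rps12, at −0.23 (SE 0.23), and Rpl23, at −0.28 (SE 0.23). Nop56 and Zbed3 were at −0.096 (SE 0.081) and −0.095 (SE 0.14).

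The proteins that bind and process snoRNAs were compared in the same fit. Of the 4 core proteins of box C/D particles none passed the adjusted threshold and none had an unadjusted p under 0.05. Snu13, which binds the kink formed by the 2 boxes, had 67.7 ± 7.39 FPKM in KO libraries and 82.2 ± 12.8 FPKM in WT libraries (SD, n = 4 each). Fbl, the methyltransferase, had 30.9 ± 3.43 FPKM in KO libraries and 31.9 ± 3.26 FPKM in WT libraries (SD, n = 4 each). Log2 fold changes were −0.27 (SE 0.12) for Snu13, 0.20 (SE 0.13) for Nop58, −0.096 for Nop56 and −0.046 (SE 0.11) for Fbl.

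The 4 H/ACA core proteins likewise gave none under either threshold. Dkc1, the pseudouridine synthase, had 27.0 ± 3.48 FPKM in KO libraries and 23.4 ± 3.90 FPKM in WT libraries (SD, n = 4 each), with a log2 fold change of 0.21 (SE 0.14). Nhp2 was at −0.40 (SE 0.20), Nop10 at −0.26 (SE 0.18) and Gar1 at −0.048 (SE 0.15). For Nhp2 and Nop10 the highest of all 8 values was that of WT replicate 1, at 48.5 and 61.2 FPKM.

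Of 14 assembly factors, 7 had a higher and 7 a lower KO mean. None passed the adjusted threshold and 1 had an unadjusted p under 0.05 (7.14%, beside 5.75% of all genes tested). That gene was Znhit6, a box C/D assembly factor, with 21.8 ± 2.90 FPKM in KO libraries and 18.2 ± 0.582 FPKM in WT libraries (SD, n = 4 each) and a limma adjusted p of 0.68. The next were Pih1d1 at a log2 fold change of −0.25 (SE 0.13), Znhit3 at −0.19 (SE 0.099) and Tgs1, which makes the trimethylated cap of some snoRNAs, at 0.22 (SE 0.12). Of 9 processing enzymes tested, 1 had an unadjusted p under 0.05 (11.1%, beside 5.75% of all genes tested) and none an adjusted one. It was Xrn1, a 5′ exonuclease of cytoplasmic RNA decay, with 9.87 ± 0.915 FPKM in KO libraries and 8.08 ± 0.819 FPKM in WT libraries (SD, n = 4 each) and a limma adjusted p of 0.68. The exosome nuclease Dis3 was at 0.24 (SE 0.11), the nuclear exonuclease Xrn2 at 0.16 (SE 0.090) and the RNA-tailing polymerase Tent4a at −0.18 (SE 0.11).

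Of 10 noncoding snoRNA host genes tested, 2 had a higher and 8 a lower KO mean, and none had an unadjusted p under 0.05. The 4 of lowest p were Snhg8 at a log2 fold change of −0.45 (SE 0.24), Snhg17 at 0.19 (SE 0.11), Snhg9 at −0.34 (SE 0.19) and Snhg12 at −0.23 (SE 0.18). The summed level of the whole list was 208 to 248 FPKM in KO libraries and 209 to 437 FPKM in WT libraries, and the highest was WT replicate 1. Small Cajal body RNAs, which guide the same changes on spliceosomal RNAs, were tested in 7 genes. Of these 6 had a higher and 1 a lower KO mean, and none passed the adjusted threshold. Scarna6 alone had an unadjusted p under 0.05 (14.3% of the list, beside 5.75% of all genes tested). Scarna6 had 1.41, 1.52, 1.20 and 3.36 FPKM in KO libraries, against 0.927, 1.17, 0.925 and 0.920 FPKM in WT libraries. Every KO library lay above every WT library, narrowly so for KO replicate 3, KO replicate 4 lay far above the rest, and the limma adjusted p was 0.68.

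Shared sequence limits how some members can be read. Of the 52, 10 share at least one 30-base stretch with a transcript of another gene that does not overlap them, and 2 share at least 50% of such stretches, Snord58b (70.3%, with Gm22354) and Snora30 (53.5%, with Gm25133). Snora41 shares 47.6%, Snora33 38.0%, Snora17 32.0%, Snora57 31.1% and Snora21 30.6%. The sources used here do not say how fragments that map to several places were treated, so the levels of these genes are uncertain to that extent. The genes named for the lowest p-values in either direction, Snora21 aside, share none. Fewer cells of a type and less RNA per cell cannot be told apart in bulk tissue.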

How the data were processed

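PolyA RNA-seq was made from 8 dorsal horn libraries, 4 KO and 4 WT, with a NEBNext Ultra kit, per the labels' protocols. HISAT2, SAMtools and Cufflinks were used and the build mm8 is listed, per the submitters' processing notes, and the sources used here give no versions, options, strand setting or treatment of multiply mapped fragments. Each deposited file gives FPKM by gene, with gene identifier and locus, per the file headers, and the authors computed these FPKM before deposit. All 141 named snoRNA loci equalled GENCODE M21 on GRCm38, so coordinates are on that build, numbered from 1.

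Fragments were recovered as FPKM times locus length times depth. The depth was the value at which 6193 of 6194 values of other genes under 250 bases lay within 0.1 of a whole number, against 20% by chance. Since the values are not counts, limma 3.58.1 in R 4.3.3 (lmFit, eBayes with trend and robust, two-sided) was run on log2(FPKM + 1) for 21279 genes with a mean above 0.1 FPKM, with Benjamini-Hochberg adjustment over all of them and a threshold of 0.05. On this scale fold changes of low genes are understated. The fit was tested on simulated data. A host is the annotated gene of the same strand, among those with FPKM values, that spans the snoRNA locus.

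Named members are the 6 of highest mean per class, the 6 of lowest p in each direction and those of hosts with at least 3 members, 26 in all, with the 4 genes of lowest p per list. The host genes of named members are given too, except 1 that is not reported here. Lists were core proteins, assembly factors, processing enzymes, noncoding hosts, small Cajal body RNAs and cell markers. The members and lists were chosen with earlier results of these data known, so no p was adjusted over a list and no set test was made. Alternatives were a pseudocount of 0.1, a mean of at least 1 FPKM, no filter, median-ratio rescaling, quantile normalization, no trend or robust option, library weights, a replicate block and leaving out each library.

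Of the marker lists, the 7 neuron markers summed to 1386 to 1515 FPKM in KO libraries and 1319 to 1625 FPKM in WT libraries, and the 4 astrocyte markers to 675 to 805 FPKM in KO and 625 to 895 FPKM in WT libraries. Oligodendrocyte markers (4) summed to 8037 to 8764 FPKM in KO and 7463 to 12170 FPKM in WT libraries, and microglia markers (4) to 50.1 to 57.1 FPKM in KO and 45.5 to 60.0 FPKM in WT libraries. Motor neuron markers (4) summed to 7.38 to 41.0 FPKM in KO and 7.79 to 29.7 FPKM in WT libraries, and meninges markers (5) to 63.7 to 124 FPKM in KO and 63.2 to 72.6 FPKM in WT libraries. Schwann cell markers (3) summed to 454 to 1060 FPKM in KO and 518 to 1070 FPKM in WT libraries, sensory ganglion markers (3) to 27.7 to 63.4 FPKM in KO and 17.7 to 61.4 FPKM in WT libraries, and neutrophil markers (3) to 1.63 to 20.4 FPKM in KO and 0.187 to 22.0 FPKM in WT libraries.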

Additional observations from a re-analysis of the deposited data

Results flagged for a closer look

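In each genotype, single libraries were compared with the other 3 for the 26 named members and for the summed levels of both classes, 56 groups in all. A library was picked out where its gap to the nearest other value took most of the group's range. Chance alone picks out about 1 in 20 groups of normally distributed values, and 8 were found. The rate for values of a few fragments, such as those of Snord110, was not measured. Snora57 had 5.35 FPKM in KO replicate 4, above the 3.19 to 3.47 FPKM of the other KO libraries. Snord110 had 1.08 FPKM in KO replicate 3, above 0.365 to 0.485 FPKM in the other KO libraries, and 0.398 FPKM in WT replicate 4, where the other WT libraries were at 0. Snora47 had 0.887 FPKM in KO replicate 3, below 1.91 to 2.02 FPKM. Snord83b was at 0 FPKM in KO replicate 2, below 1.30 to 1.40 FPKM. From the same host gene, Snord49a had 5.87 FPKM in KO replicate 1, above 1.02 to 1.83 FPKM, and Snord49b had 3.96 FPKM in WT replicate 2, above 1.28 to 1.51 FPKM. The H/ACA genes together had 35.5 FPKM in KO replicate 3, below 46.2 to 48.3 FPKM in the other KO libraries.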

How the results depend on the processing

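No member passed the adjusted threshold under any of the 16 alternatives. Over all genes 0 to 2 passed when 1 library was left out, with 2 only without KO replicate 2. Genes with an unadjusted p under 0.05 numbered 702 (without KO replicate 1) to 3554 (without WT replicate 4) instead of 1224, and 4025 with library weights. They were 712 without KO replicate 2, 1847 without KO replicate 3 and 814 without KO replicate 4. Members at that level were 10, 6 of the 35 tested with a mean of at least 1 FPKM, 16 with library weights, and 8 to 11 when 1 library was left out. Between KO and WT libraries of the same replicate number, correlations of deviations were −0.0919 to 0.12. Libraries of different numbers were not compared in this way, so these values cannot decide whether the numbers pair the libraries. A fit with the replicate block gave 15 members and 1157 genes at that level. The box C/D median log2 fold change was −0.051 with a pseudocount of 0.1, −0.040 with library weights and −0.075 to 0.15 when 1 library was left out. Of 411 values of the 26 named members, 398 kept their direction and 13, in 7 members, turned. Library weights gave −0.068 for Snord58b and 0.022 for Snord65. Leaving out 1 library gave −0.013 to 0.34 for Snord91a, −0.054 to 0.65 for Snord58b, −0.14 to 0.48 for Snora57, −0.43 to 0.077 for Snora34, −0.16 to 0.41 for Snora17, −0.034 to 0.44 for Snord49b and −0.33 to 0.23 for Snord65. The cause was not tested. Of the 10 members with an unadjusted p under 0.05, Snora23, Snord37, Snord66, Snord110 and Snord19 stayed there in 8 of 8 leave-one-out fits, and Snord83b did in 6, Snora78 and Snora47 in 4, Snora69 in 3 and Snora21 in 2. Snord110 and Snora21 were included through the genotype where they were higher, so these counts do not bear on them independently of that choice. For host genes and the members in them, leaving out WT replicate 1 and both rescalings were chosen after seeing the data. Depth limits the 24 members with under 40 fragments most.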
